A study of Mus musculus with 36 samples.

Results

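Titin, nebulin and obscurin-like 1 were followed here through their genes, Ttn, Neb and Obsl1, 3 genes chosen by their symbols out of 21156 genes in the table. Together they hold 5 of the table's 31668 transcript rows: a pair for Ttn, 1 for Neb and a pair for Obsl1. Obsl1 encodes obscurin-like 1. All 3 genes passed the filter on low counts.

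Titin is a giant protein that runs from the Z-disc, the border of the sarcomere, to the M-band at its middle. Its extensible I-band part acts as a spring, and its A-band part lies along the thick filament. Nebulin lies along the thin filament of skeletal muscle and is needed for its normal length. Obscurin-like 1 binds titin and myomesin at the M-band, and is also a member of the 3M ubiquitin ligase complex with Cul7 and Ccdc8.

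The samples were soleus muscles of male C57BL/6J mice, each library from 1 mouse. The ages were 6 months (young) and 22 to 24 months (old). At each age, controls (9 young, 9 old) were set against mice with the hind limbs unloaded for 10 days (4 young, 6 old) and mice unloaded for 10 days and then reloaded for 3 days (4 young, 4 old). The whole soleus was extracted, so a fall in a transcript can come from fewer cells of a type or from less RNA per cell, and these cannot be told apart. Gene totals ran from 32.0 to 37.9 M reads over the 36 libraries, and 15031 genes were tested. All 10 soleus fibre markers passed the filter; their summed level was 61010 to 74740 counts per M reads (CPM) in young controls and 45330 to 50890 CPM in young unloaded mice. The liver gene Alb exceeded 20 CPM in 6 libraries of unloaded or reloaded mice, the highest being old reloading replicate 2 at 1740 CPM, and calls lost without these 6 are given as such. These libraries were young unloading replicate 2, young reloading replicates 1 and 2, old unloading replicate 6, and old reloading replicates 2 and 4. A call lost without them cannot be told apart from one lost to fewer mice.

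Ttn lies on the minus strand of chromosome 2 (mm10, 76703984 to 76982548). Its longer row, the N2-A transcript NM_011652, has 101674 bases, and its shorter row, the N2-B transcript NM_028004, has 81931 bases. In the GENCODE models of these transcripts (GRCm38), N2-A has 312 exons and N2-B has 192. Of the bases of the N2-B model, 4.7% are not in N2-A, against 22.32% the other way, so most reads fall on bases that both rows share. Neb lies on the minus strand of chromosome 2 (52136647 to 52338799), with 157 exons in a row of 22489 bases. The unnamed gene model 4930573O16Rik overlaps it in the table, and the sources used here do not say if counting was by strand, so reads of the pair may be mixed. Obsl1 lies on the minus strand of chromosome 1 (75485825 to 75506453), with a row of 5770 bases (NM_178884) and a shorter one of 3468 bases (NM_001310679). No other gene in the table overlaps Ttn or Obsl1.

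The regions just before the start of Ttn and of Obsl1 are shown because the levels of these genes went in different directions in unloaded muscle. Each is the 250 bases before the start, from RefSeq promoters on GRCm38.p6, read on the minus strand. Capitals mark the letters CTANNNNTAG, searched on both strands, a loose form of the core bound by the muscle transcription factors of the MEF2 family, which has only A or T in the 4 middle positions.
Ttn, chr2:76982548-76982797: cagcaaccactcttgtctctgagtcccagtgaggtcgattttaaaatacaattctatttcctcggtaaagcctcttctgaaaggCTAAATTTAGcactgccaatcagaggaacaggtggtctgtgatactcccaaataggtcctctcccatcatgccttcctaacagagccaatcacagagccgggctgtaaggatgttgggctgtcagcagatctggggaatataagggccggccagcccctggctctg
Obsl1, chr1:75506453-75506702: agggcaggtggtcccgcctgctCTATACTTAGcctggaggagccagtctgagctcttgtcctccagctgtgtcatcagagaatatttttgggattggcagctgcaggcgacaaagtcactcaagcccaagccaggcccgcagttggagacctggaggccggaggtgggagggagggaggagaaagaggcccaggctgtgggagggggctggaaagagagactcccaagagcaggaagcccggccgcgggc
Each region holds 1 such match, starting 166 bases before the start of Ttn and 228 bases before that of Obsl1. Of 32851 RefSeq promoters of the same length, 3.2% hold at least 1. The stricter form with A or T in the middle is met before Ttn and not before Obsl1, and 0.5% of promoters hold it. The E-box letters CANNTG occur 1 time before Ttn and 4 times before Obsl1, and 66.2% of promoters hold them. The MCAT letters CATTCC were not in either window on either strand, and 12.6% of promoters hold them. A match describes the letters and does not show that a factor binds there. The promoter of Neb was not used here.

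The 3 genes stood at very different levels. Per length, in reads per kilobase of transcript per M reads (RPKM, summed over a gene's rows), Ttn was at 1647 ± 33.0 (SD, n = 9) in young controls, Neb at 743.6 ± 21.9 and Obsl1 at 3.81 ± 0.43. In reads, the libraries held 7277000 to 10030000 reads of Ttn, 799300 to 1202000 of Neb and 927 to 2713 of Obsl1, so the counting error is largest for Obsl1. The 3 genes together took 24.83 to 29.95% of the reads summed over the genes of a library. The RPKM values imply library totals 1.49 to 1.61 times that sum, and of those totals the 3 genes took 15.62 to 19.63%, so the level of every share below depends on the total used. So do differences between groups, since the implied totals were highest against the sums in unloaded mice. The 3 genes took 25.95% of the sum in young controls and 25.4% in young unloaded mice, but 16.94% and 15.84% of the implied total (means).

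Titin was lowest in unloaded muscle at both ages. In young controls Ttn took 22.82 to 24.1% of the summed reads (median 23.34%), or 14.92 to 15.83% of the total implied by RPKM. The 4 young unloaded libraries held 22.31%, 22.72%, 22.70% and 22.80%, below every young control. In old controls the share ran from 24.56 to 27.18% (median 25.51%). Old control replicates 1 to 4 (26.3 to 27.18%) all lay above replicates 5 to 9 (24.56 to 25.51%), and no label says that these numbers mark a batch. In the 6 old unloaded mice the share ran from 21.94 to 24.08% (median 23.27%), again below every control. The difference in means was -0.757 percentage points in young mice (adjusted p = 0.00839) and -2.50 points in old mice (adjusted p = 0.00432; exact two-sided permutation tests, Benjamini-Hochberg over 36 tests of library measures).

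With reloading the titin share was higher again in old mice. The 4 old reloaded libraries held 25.58%, 26.37%, 24.11% and 25.71%, each above every old unloaded library (difference in means 2.22 points, exact permutation adjusted p = 0.0122, and 0.0571 without replicate 2). The 4 young reloaded libraries held 24.95%, 22.55%, 24.07% and 26.53%, a wider spread than in any other group, and they overlapped the young unloaded and the young control libraries (adjusted p = 0.196 and 0.106, exact permutation test). Without replicate 2 the difference from young controls was 1.79 points and was called (exact permutation adjusted p = 0.0205), against 1.14 points with it. Ordered by mean, the groups were young unloaded (22.63%), old unloaded (23.22%), young control (23.39%), young reloaded (24.52%), old reloaded (25.44%) and old control (25.72%). Of the neighbours that were compared, young and old unloaded mice (adjusted p = 0.32), young control and reloaded mice, young and old reloaded mice (0.533) and old reloaded and control mice (0.807) did not differ beyond their spread in the exact permutation test. By mean share of the total implied by RPKM, old reloaded mice (17.02%) stood above old controls (16.79%), and the other groups kept their order.

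A share of reads moves when other genes move, so the same comparisons were made with edgeR's quasi-likelihood test, which scales libraries by their other genes (TMM). A gene was called at a Benjamini-Hochberg adjusted p under 0.05 over the 15031 genes. In old unloaded mice Ttn fell by 0.23 ± 0.06 (log2 fold change ± SE, adjusted p = 0.00168), a call lost when only the groups compared were fitted (-0.21, adjusted p = 0.0854). In young unloaded mice its value was -0.07 ± 0.07 (adjusted p = 0.409, 95% interval -0.20 to 0.06). These 2 changes were not told apart from each other (difference -0.16 ± 0.09, edgeR adjusted p = 0.566). Of all genes tested, 40.8% were called in young and 42.7% in old unloaded mice. The fall of Ttn in old mice went with a lower sum of the soleus fibre markers, 60670 to 74260 CPM in old controls and 48070 to 60250 CPM in old unloaded mice. In young mice, where Ttn was not called, the sum was also lower, 61010 to 74740 CPM in controls and 45330 to 50890 CPM in unloaded mice. The part of this sum in the result was not tested.

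In old reloaded against unloaded mice Ttn rose by 0.25 ± 0.07 (edgeR adjusted p = 0.00355), where 51.3% of genes were called. The call was lost without the 6 libraries above 20 CPM of Alb (0.16, adjusted p = 0.272) and with only the groups compared (0.24, 0.157). In young mice reloading gave 0.11 ± 0.08 (adjusted p = 0.261), where 47.9% of genes were called. Against controls, reloaded mice stood at 0.04 ± 0.06 in young and 0.02 ± 0.06 in old mice, and neither was called. In old against young controls Ttn rose by 0.15 ± 0.05 (edgeR adjusted p = 0.0299; 23.7% of genes called). This call was lost without young control replicate 2 (0.14, adjusted p = 0.0507), old control replicate 3 (0.14, 0.0508) or old control replicate 4 (0.13, 0.0637). It was also lost with no filter on low counts (edgeR adjusted p = 0.0926), with only the groups compared (0.0731) and without the 6 libraries with more Alb (0.0891), at values of 0.15.

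**Figure D1:**
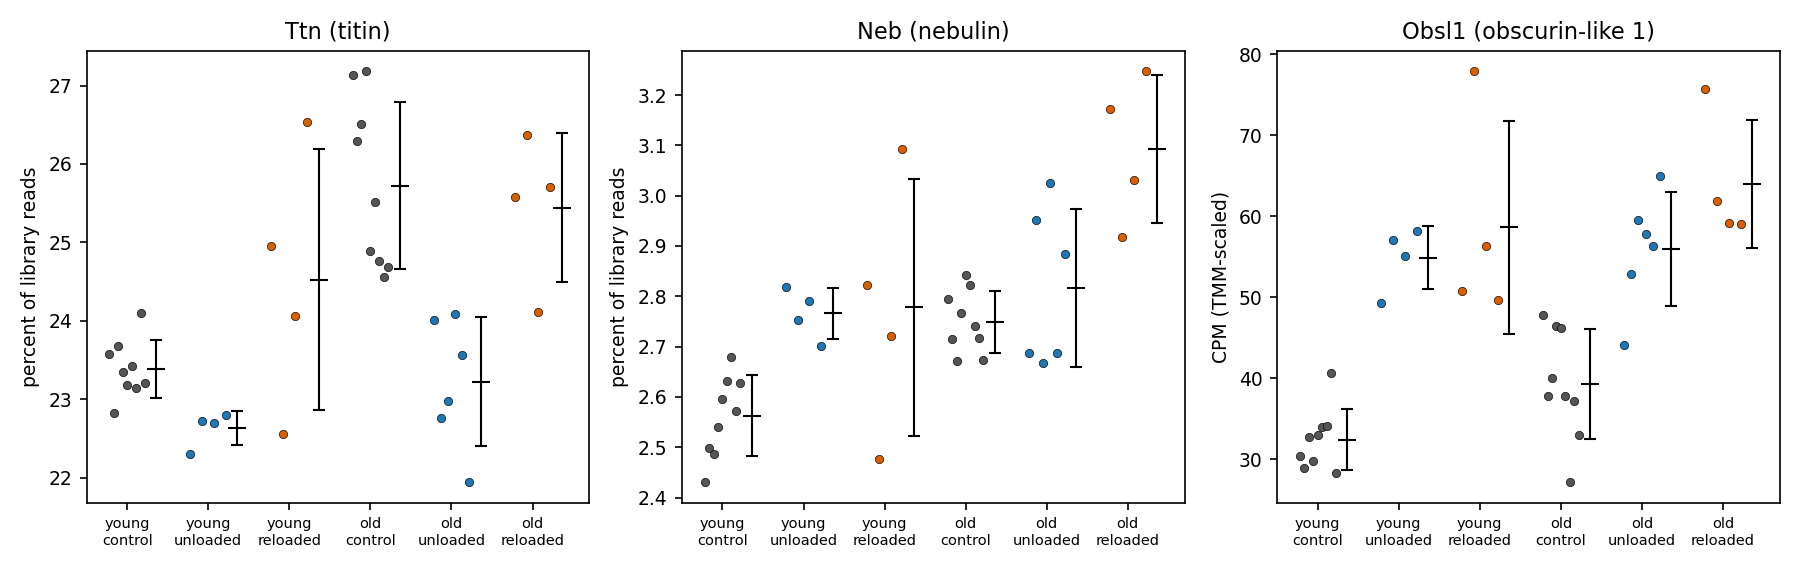
Share of library reads of Ttn and Neb (percent) and level of Obsl1 (TMM-scaled CPM) in each of the 36 libraries, by group; each point is 1 mouse and the bars give the mean ± SD. The unloaded groups hold the lowest titin shares, the old reloaded mice the highest nebulin shares, and Obsl1 is higher in unloaded and reloaded mice than in young controls. The axes do not start at 0.

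Nebulin was highest in old reloaded mice. These 4 libraries held Neb at 3.17%, 2.92%, 3.03% and 3.25% of reads, each above the highest old control (2.84%). Old controls ran from 2.67 to 2.84% (median 2.74%) and old unloaded mice from 2.67 to 3.03% (median 2.79%), which overlap. The young controls held the lowest share, 2.43 to 2.68% (median 2.57%). All 4 young unloaded libraries (2.82%, 2.75%, 2.79% and 2.70%) lay above them, whereas the 4 young reloaded libraries (2.82%, 2.48%, 2.72% and 3.09%) spread across both groups. Young control replicates 1 to 4 (2.43 to 2.54%) all lay below replicates 5 to 9 (2.57 to 2.68%), while in old controls the same numbers overlapped.

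In edgeR's test Neb rose in old reloaded mice by 0.25 ± 0.06 against unloaded mice (adjusted p = 0.000999; 0.057 with only the groups compared) and by 0.21 ± 0.06 against controls (adjusted p = 0.00367; 42.9% of genes called). It was also higher in old than in young reloaded mice, by 0.24 ± 0.07 (adjusted p = 0.0137; 19.7% of genes called). That last call was lost without young reloading replicate 2 (0.19, adjusted p = 0.059), without old reloading replicate 4 (0.20, 0.0556), with only the groups compared (0.23, 0.267) and without the 6 libraries with more Alb (0.16, 0.405). The rise against old controls was also not called without the latter (0.18, adjusted p = 0.0811). Neb was not called in young mice with reloading (0.00 ± 0.07, 95% interval -0.14 to 0.14). The difference between the ages in the reloading response was 0.25 ± 0.09 (edgeR adjusted p = 0.155, where 0.778% of genes were called), and DESeq2 gave 0.26 (adjusted p = 0.031). Without young reloading replicate 4 edgeR's value was 0.34 (adjusted p = 0.035).

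Unloading did not move Neb past the threshold in edgeR's test at either age (0.09 ± 0.06 in young, adjusted p = 0.241; -0.04 ± 0.05 in old, adjusted p = 0.515). By share of reads, young unloaded mice lay above controls by 0.203 points (exact permutation adjusted p = 0.00458), but with the library total that the RPKM values imply, the difference was 0.0521 points (adjusted p = 0.154). Ordered by mean share, the groups were young control (2.56%), old control (2.75%), young unloaded (2.77%), young reloaded (2.78%), old unloaded (2.82%) and old reloaded (3.09%). By mean RPKM the order changed, with old controls (798.0) above young unloaded (766.7) and old unloaded mice (782.5). Young and old controls differed beyond their spread (exact permutation adjusted p = 0.00222), although edgeR's value of 0.11 ± 0.05 was not called (adjusted p = 0.065). Young unloaded and reloaded mice (exact permutation adjusted p = 0.966) and old unloaded and reloaded mice (0.0706) did not differ beyond their spread.

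Obsl1 rose with unloading at both ages and was not called lower after 3 days of reloading. Young controls held 28.28 to 40.63 CPM (median 32.68). The 4 young unloaded libraries held 49.33, 57.05, 55.05 and 58.12 CPM, above every young control. The 4 young reloaded libraries held 50.70, 77.88, 56.30 and 49.65 CPM, with replicate 2 well above the others. Old controls ran from 27.15 to 47.8 CPM (median 37.81), old unloaded mice from 44.08 to 64.94 CPM (median 57.06), and the 4 old reloaded libraries held 75.66, 61.88, 59.15 and 59.07 CPM. At old age the unloaded group overlapped the controls and the reloaded group did not. The summed level of 3 satellite cell markers was also higher in young unloaded mice (34.05 to 36.49 CPM) than in young controls (21.87 to 28.46 CPM). In young reloaded mice it was 24.92 to 28.04 CPM. In old mice it was 22.46 to 33.88 CPM in controls, 27.4 to 38.62 CPM in unloaded and 25.88 to 32.93 CPM in reloaded mice. The part of these cells in the Obsl1 result was not tested.

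In edgeR's test Obsl1 rose with unloading by 0.76 ± 0.12 in young mice (adjusted p = 3.38e-06), a 1.69-fold change, and by 0.51 ± 0.10 in old mice (adjusted p = 0.000171), a 1.42-fold change. The difference between the ages was -0.25 ± 0.16 (edgeR adjusted p = 0.635, where 0% of genes were called). Against controls, Obsl1 was also higher in reloaded mice, by 0.86 ± 0.12 in young (adjusted p = 2.69e-07; 49.6% of genes called) and by 0.70 ± 0.12 in old mice (adjusted p = 9.67e-06). Against unloaded mice, the values were 0.10 ± 0.14 in young (95% interval -0.19 to 0.38) and 0.19 ± 0.13 in old mice (-0.07 to 0.46), and neither was called. The 4 calls against controls held without any 1 library. They also held under every setting given in the closing section, leaving aside a dropped split of the controls.

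In old against young controls Obsl1 rose by 0.28 ± 0.10 (edgeR adjusted p = 0.0324), a call lost without young control replicate 1, 2, 4 or 9 or old control replicate 1, 4 or 5 (values from 0.24 to 0.33 over the 18 fits that left out 1 control; 12.1% of genes were called higher). Ordered by mean, Obsl1 stood at 32.4 ± 3.77 CPM in young control, 39.26 ± 6.78 in old control, 54.89 ± 3.92 in young unloaded, 55.92 ± 7.03 in old unloaded, 58.63 ± 13.2 in young reloaded and 63.94 ± 7.92 in old reloaded mice. The last 4 of these were not told apart in the comparisons made among them. None of the 3 genes was called in old against young unloaded mice, where 9.81% of genes were, or in any of the 3 tests of a difference between the ages.

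**Figure D2:**
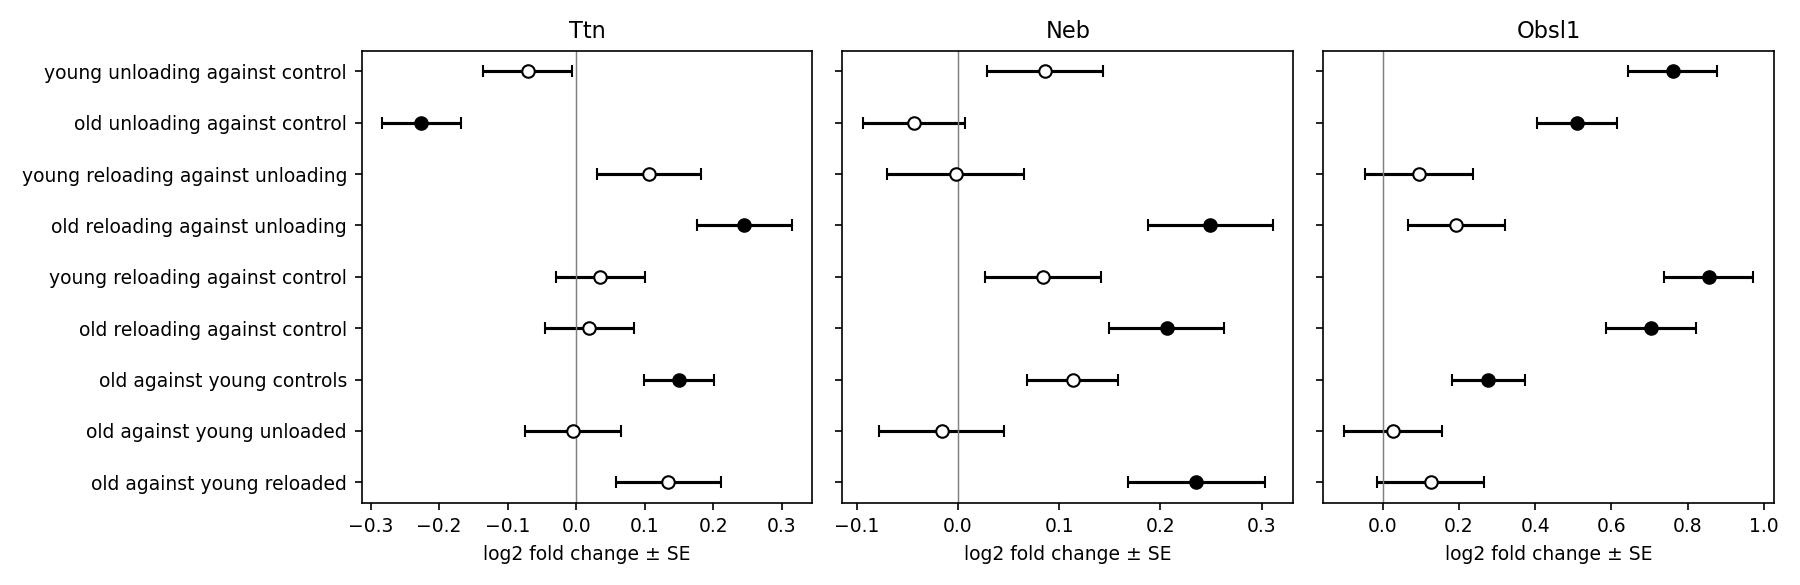
Log2 fold change ± SE of Ttn, Neb and Obsl1 in 9 comparisons (edgeR); filled points have an adjusted p under 0.05. Obsl1 has 5 filled points, of which 4 are its comparisons with controls of the same age; Ttn and Neb have 3 each, and their changes are smaller.

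Ratios within a library do not depend on how libraries are scaled. The log2 ratio of Neb to Ttn reads was -3.278 to -3.11 in young controls and -2.984, -3.045, -3.024 and -3.077 in the 4 young unloaded libraries, which lay above every control. The rise was 0.158 in young (exact permutation adjusted p = 0.00458) and 0.181 in old mice (adjusted p = 0.00432), where 2 of the 6 unloaded libraries lay within the range of the controls. Put the other way, young controls held 9.14 ± 0.35 titin reads per nebulin read and young unloaded mice 8.19 ± 0.22, and old controls 9.36 ± 0.43 and old unloaded mice 8.27 ± 0.58. Per length, the RPKM ratio of Ttn to Neb was 2.22 ± 0.08 and 1.98 ± 0.05 in young, and 2.27 ± 0.10 and 2.00 ± 0.14 in old mice. For the log2 ratio of Neb to Ttn, old control replicates 1 to 4 (-3.310 to -3.276) all lay below replicates 5 to 9 (-3.207 to -3.131). In young controls the same numbers overlapped.

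After reloading, the ratio of Neb to Ttn stayed above that of controls in old mice (0.185, exact permutation adjusted p = 0.0116). In young reloaded mice it lay at -3.144, -3.187, -3.145 and -3.1, below all 4 unloaded libraries (-0.111, adjusted p = 0.0686). With 4 libraries against 4, the smallest p the exact test can give is 0.0286 before adjustment. The log2 ratio of Obsl1 to Ttn was higher than in controls by 0.838 in young unloaded, 0.746 in old unloaded, 0.809 in young reloaded and 0.697 in old reloaded mice (exact permutation adjusted p = 0.00458, 0.00432, 0.00458 and 0.00458).

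**Figure D3:**
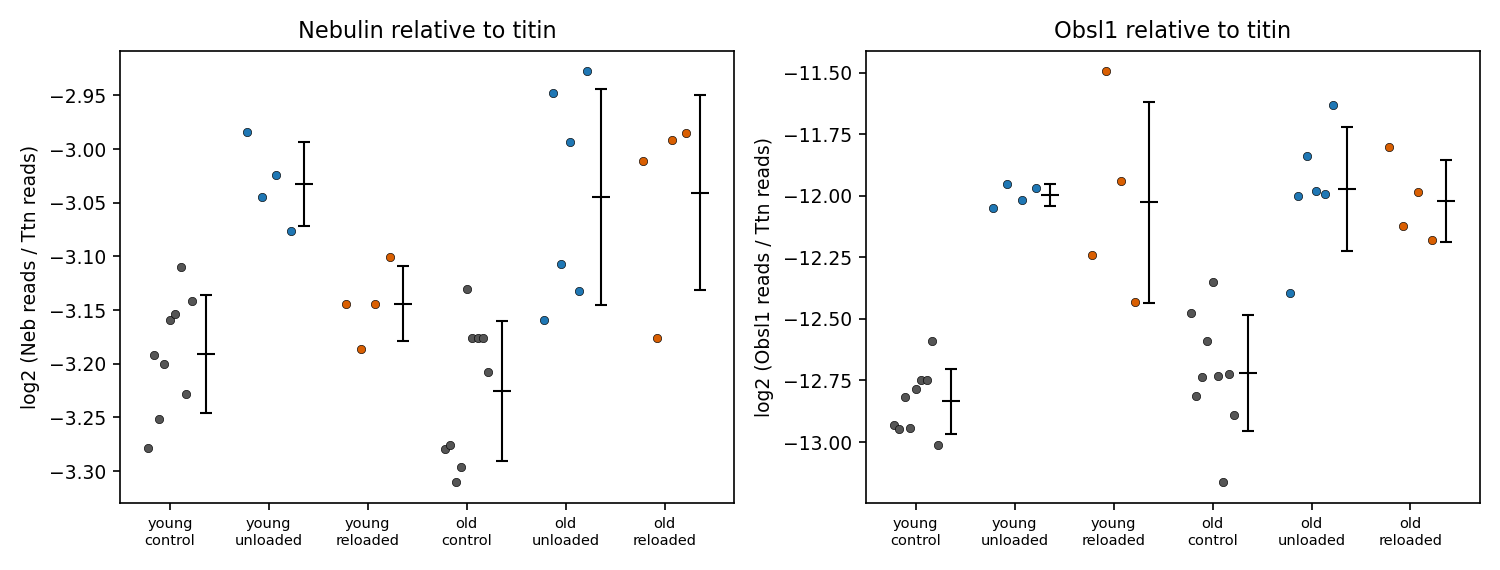
Log2 ratio of Neb to Ttn reads and of Obsl1 to Ttn reads in each library, by group; points are mice and bars are mean ± SD. Both ratios are higher in unloaded mice than in controls of the same age, and the ratio of Neb to Ttn in young reloaded mice lies below that in young unloaded mice.

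The split of titin reads between its rows was nearly constant. The N2-A row took 59.67 to 59.85% of Ttn reads in young controls and 59.94 to 60.4% in young unloaded mice. In old mice it took 59.67 to 59.95% in controls, 60.18 to 60.53% in unloaded and 59.78 to 59.88% in reloaded mice. Equal numbers of both transcripts would put 55.4% of reads on this row by its length. Only 4.7% of the bases of the N2-B model are not in N2-A, so the split does not measure how many molecules of each were present. The shifts with unloading were 0.403 points in young (adjusted p = 0.0126) and 0.523 points in old mice (adjusted p = 0.0036), and the groups did not overlap (exact permutation tests, Benjamini-Hochberg over 18). In old reloaded mice the share was lower than in unloaded mice by -0.514 points (adjusted p = 0.0252, and 0.171 when the 6 libraries with more Alb were left out). Leaving these out removed old reloading replicates 2 and 4, and with so few mice the exact test could hardly pass.

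In young reloaded mice the N2-A share was 59.77%, 61.13%, 59.92% and 60.15%, with replicate 2 apart. The difference from young controls, 0.50 points (exact permutation adjusted p = 0.0252), was 0.203 points without that library, and without replicate 2, 3 or 4 the adjusted p was 0.0655. These values rest on how the authors divided reads between rows that share most of their bases. Obsl1 reads went mostly to the longer row, 88.25 to 97.42% over all libraries. That share was 1.91 points higher in old than in young controls (exact permutation adjusted p = 0.0477), a call lost without any 1 of young control replicates 3 to 9 or of old control replicates 1, 2, 4, 5, 6 and 8, and no other comparison was called.

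**Figure D4:**
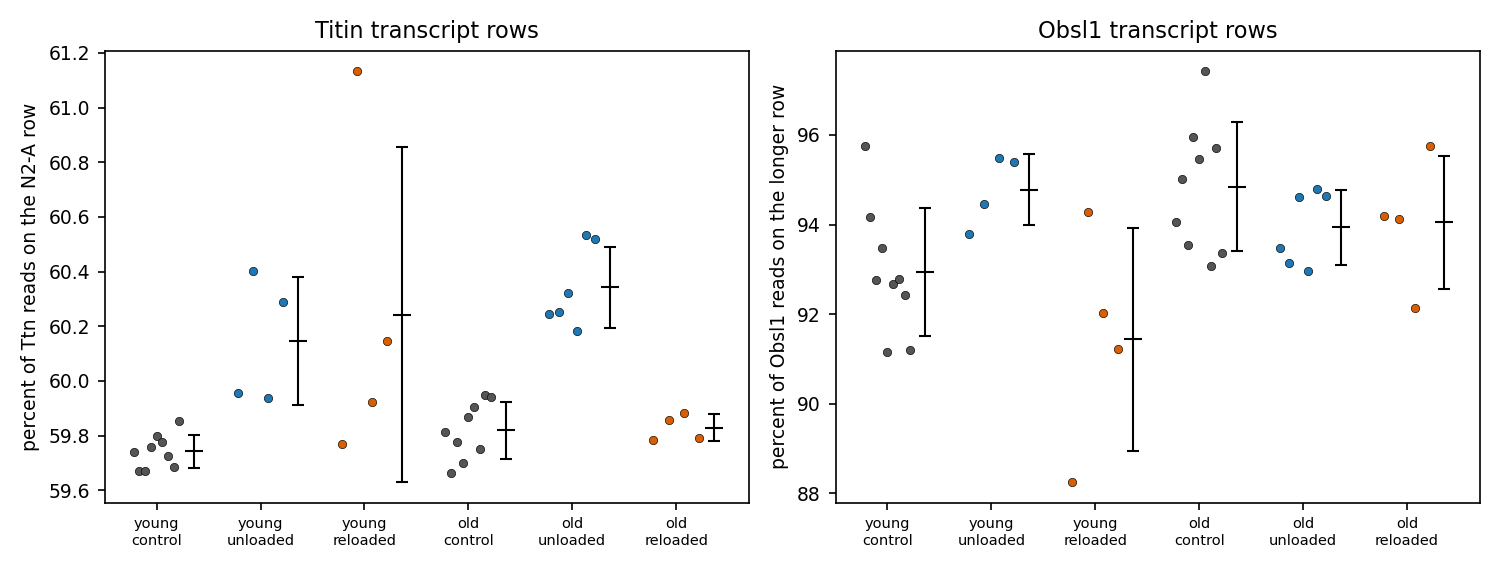
Percent of Ttn reads on the N2-A row and of Obsl1 reads on the longer row, in each library; points are mice and bars are mean ± SD. The N2-A share lies higher in unloaded mice than in controls by less than 1 point, and 1 young reloaded library stands at 61.13%. The axes do not start at 0.

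Nebl, the nebulin relative of heart muscle, stood at 0.54 to 1.72 CPM and was not called in any comparison.

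Rbm20, which encodes an RNA-binding protein that controls titin splicing in heart, fell in young mice. Its level was 89.45 to 124.1 CPM in young controls, 93.11, 84.34, 91.45 and 92.09 CPM in the 4 unloaded and 72.67, 74.48, 65.43 and 79.67 CPM in the 4 reloaded libraries, which lay below all others. Young control replicates 1 to 4 (112.2 to 124.1 CPM) all lay above replicates 5 to 9 (89.45 to 108.9 CPM), while in old controls the same numbers overlapped. The change was -0.24 ± 0.08 with unloading (adjusted p = 0.0214) and -0.30 ± 0.10 with reloading (edgeR adjusted p = 0.00972). The former was not called without the 6 libraries with more Alb (-0.20, adjusted p = 0.108) or without young unloading replicate 2 alone (-0.20, adjusted p = 0.0884). In old mice Rbm20 was not called in either (-0.06 ± 0.07 and -0.02 ± 0.09). The difference between the ages was not called for unloading (0.18 ± 0.11, edgeR adjusted p = 0.623) or for reloading (0.28 ± 0.13, adjusted p = 0.274). The response of reloaded against control mice differed between the ages by 0.46 ± 0.12 (edgeR adjusted p = 0.0227, where 4.82% of genes were called).

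The genes whose products bind titin, nebulin or Obsl1, or act on their genes, were grouped by place and role. Over all genes tested, 19.1% rose and 21.7% fell with unloading in young mice, and 19.5% and 23.2% in old mice. With reloading 26.4% rose and 21.5% fell in young mice, and 27.8% and 23.5% in old mice. Of 11 partners of the titin I-band and its N2A part, 1 rose and 7 fell with unloading at each age (median log2 fold change -0.42 in young and -0.37 in old mice, against 0.00 over all genes tested). Called lower in young mice were Fhl2, a LIM protein at the N2B element (-1.08 ± 0.16), Ankrd23, a muscle ankyrin repeat protein (-0.82 ± 0.13), and the small heat shock protein gene Cryab (-1.03 ± 0.21). In old mice Ankrd23 (-0.85 ± 0.11), the N2A-bound protease gene Capn3 (-0.37 ± 0.06) and Cryab (-1.03 ± 0.18) fell. With reloading 7 rose and 3 fell in young mice and 7 rose and 1 fell in old mice. Ankrd2, another ankyrin repeat gene, rose by 3.35 ± 0.28 in young and 2.70 ± 0.23 in old mice.

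Of 14 Z-disc partners of titin, 3 rose and 5 fell with unloading in young mice and 3 rose and 7 fell in old mice. Actn2, the gene of the alpha-actinin that anchors titin at the Z-disc, fell by 0.73 ± 0.14 in young mice, and Pdlim5, a PDZ-LIM protein gene, fell by 0.76 ± 0.11 in young and by 0.51 ± 0.09 in old mice. With reloading 8 rose and 1 fell in young mice, and 8 rose and 3 fell in old mice. The LIM protein gene Csrp3 rose by 3.75 ± 0.37 in young and 2.84 ± 0.30 in old mice, and Flnc, which encodes filamin C, by 1.73 ± 0.18 and 1.38 ± 0.16. Reloaded mice also held more macrophage transcripts, with a summed level of 8 marker genes of 119.5 to 297.9 CPM in young and 187.1 to 315.2 CPM in old reloaded mice against 94.28 to 132.7 and 116.9 to 173.2 CPM in unloaded mice. The sum of 5 fibroblast markers was 1323 to 2214 CPM in young reloaded, 738.0 to 848.7 CPM in young unloaded and 1025 to 1841 CPM in young control mice. In old mice it was 576.3 to 2106 CPM in reloaded, 473.2 to 641.7 CPM in unloaded and 457.8 to 795.9 CPM in control mice. The part of these cell types in the counts of the lists was not tested.

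Of 13 genes of the M-band, 6 rose and 2 fell with unloading in young mice, and 7 rose and 3 fell in old mice (median log2 fold change 0.07 and 0.18). Myom1, which encodes myomesin, the M-band cross-linker that binds titin and obscurin-like 1, rose by 0.71 ± 0.06 in young and 0.50 ± 0.06 in old mice, and Myom2 rose by 0.91 ± 0.12 and 0.66 ± 0.10. With reloading 3 rose and 8 fell in young mice and 4 rose and 8 fell in old mice, and Myom1 fell by 1.32 ± 0.08 and 0.82 ± 0.07. So Myom1 rose with unloading as Obsl1 did, while with reloading it fell and Obsl1 was not called.

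Of 17 genes of the nebulin family and of thin filament length, 5 rose and 5 fell with unloading in young mice, and 4 rose and 7 fell in old mice. The actin gene Acta1 fell by 0.65 ± 0.08 in young and by 0.47 ± 0.07 in old mice, and Lmod3, a leiomodin that nucleates thin filaments, fell by 0.73 ± 0.10 in old mice. The nebulin relative Nrap rose by 0.57 ± 0.09 in young mice, and by 1.25 when only its highest transcript row was counted. With reloading 9 rose and 4 fell in young mice, and 11 rose and 1 fell in old mice. Xirp2, a gene of the Xin family of actin-binding proteins, rose by 1.36 ± 0.15 in young and 2.42 ± 0.14 in old mice.

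Of the other 5 members of the 3M complex list, 1 rose in young unloaded mice, Fbxw8 (0.16 ± 0.04), and in old unloaded mice Fbxw8 rose (0.22 ± 0.04) while Rbx1 fell (-0.20 ± 0.04, or -0.12 with libraries scaled by their totals). With reloading 2 of the 5 rose and 1 fell in young mice, and 3 rose and 1 fell in old mice. Cul7, the cullin that Obsl1 brings into the complex, was not called with unloading and rose with reloading by 0.87 ± 0.14 in young and 0.54 ± 0.13 in old mice. Skp1a fell with reloading at both ages. With 1 library left out at a time it ran from -0.62 to -0.56 in young and -0.50 to -0.47 in old mice. Cul7 was also higher in old than in young controls (0.55 ± 0.10).

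Of 8 genes for A-band partners of titin, 7 were tested, of which 2 rose and 1 fell with unloading in young mice and 3 rose and 1 fell in old mice. Of 13 splicing regulators, 3 rose and 3 fell with unloading in young mice and 2 rose and 3 fell in old mice, with the muscleblind gene Mbnl1 at 0.36 ± 0.05 and 0.28 ± 0.04 and the quaking gene Qk at -0.60 ± 0.07 and -0.57 ± 0.06. Counted on its highest transcript row alone, Qk was at -0.13 in young mice, where the call was lost (edgeR adjusted p = 0.132), and at -0.17 in old mice. Of 14 transcription factors of sarcomere genes that were tested, 2 rose and 4 fell in young and 1 rose and 5 fell in old unloaded mice. Srf, the serum response factor gene, fell by 0.37 ± 0.08 and by 0.48 ± 0.07, and rose with reloading in old mice by 0.78 ± 0.08. Of 94 genes tested over all 8 lists together, 23 rose and 27 fell with unloading in young mice, and 22 rose and 34 fell in old mice. Over all genes tested, 40.8% were called in young and 42.7% in old unloaded mice. The lists were chosen with earlier results of these data known, so these counts are a description.

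**Figure D5:**
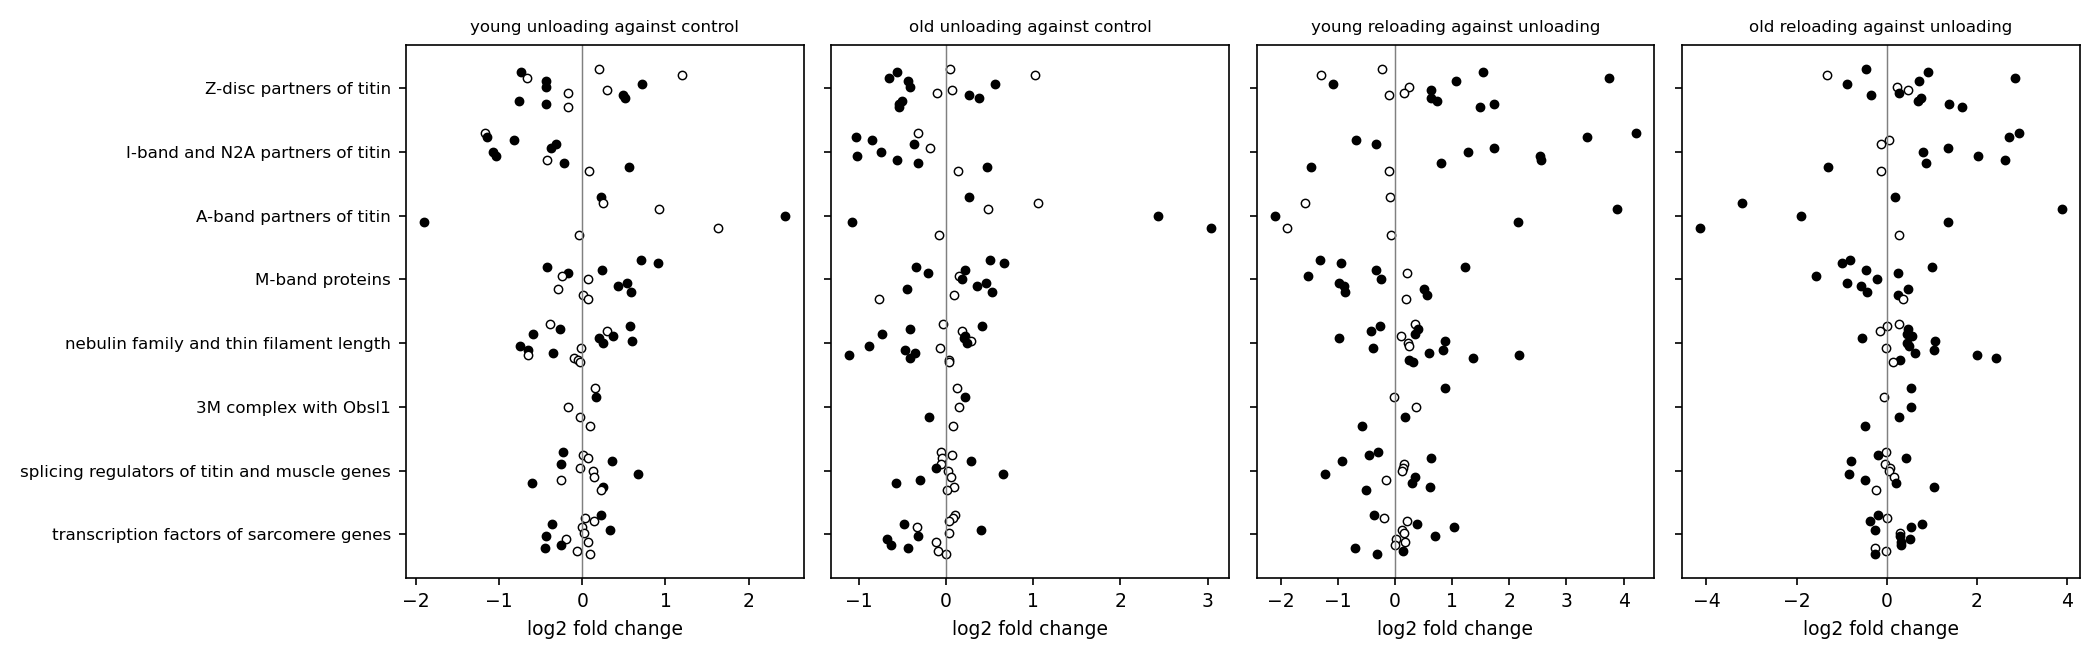
Log2 fold change of the genes of 8 partner lists in 4 comparisons (edgeR); each point is a gene and filled points have an adjusted p under 0.05. With unloading, 7 of 11 I-band partners fell at each age, while 6 of 13 M-band genes rose in young and 7 in old mice. The horizontal scales differ between panels.

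Over the 36 libraries, Pearson's r of log2 CPM was 0.624 between Ttn and Neb, -0.068 between Ttn and Obsl1 and 0.419 between Neb and Obsl1, as a description over libraries that share the same groups. For a ranking by this r, predicted genes with Gm numbers or Rik names were left out. Of the other genes whose mean reached 8 CPM, those most like Ttn were Spag7 (r = 0.819), Tnni1 (0.797), Ctnna3 (0.796) and Gprasp1 (0.791). Those most like Neb were Hsf2 (r = 0.855), Myl12a (0.805), Mycbp2 (0.799) and Myo9a (0.783). Those most like Obsl1 were Ccdc136 (r = 0.886), Rasa3 (0.883), Cacnb1 (0.881) and Des (0.854), the gene of the muscle intermediate filament desmin.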

How the data were processed

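For each of 36 mouse soleus libraries the authors' deposited table gives reads and RPKM per transcript. The build is mm10 and the tools listed are Partek 6.6, DESeq, TopHat and TopHat2 2.0.1, per the submitters' processing notes, which give no role or order. The deposited reads are values of the kind called an expected count or estimated count, since the authors divided reads among transcripts: 94.94% of gene sums were whole to within 0.01. Library totals were 32.0 to 37.9 M reads.

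Reads were summed per gene symbol and rounded, and 15031 genes kept by filterByExpr were fitted in a 6-group model (TMM, glmQLFit and glmQLFTest, edgeR 4.0.16, limma 3.58.1, R 4.3.3), with Benjamini-Hochberg adjustment at 0.05 over all genes in each of 12 comparisons. Shares, ratios and transcript splits were tested over libraries by exact permutation, two-sided. Alternatives included DESeq2 1.42.0. Mouse numbers were not taken as pairs across groups, since same-numbered libraries mostly did not deviate together in the check made. Where the labels do not say which mice share a cage or day, p-values measure only the spread between these mice. No within-group pair of libraries was a duplicate.

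The members and gene lists were chosen with earlier results of these data known. Named genes are the 3 members, Nebl and Rbm20, up to 3 called genes of each list by adjusted p with a mean of at least 8 CPM, and the 4 genes most like each member; some of these are left out for length. A gene of the partner lists, and 1 list built on it, are not reported here.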

Additional observations from a re-analysis of the deposited data

Results flagged for a closer look

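In 48 groups of 4 to 9 libraries tested, 3 had 1 library far from the rest, about what chance gives at 1 in 20 groups. Obsl1 in young control replicate 8 was at 40.63 CPM, against 28.28 to 34.08 CPM in the other 8. Obsl1 in old reloading replicate 1 was at 75.66 CPM, against 59.07 to 61.88 CPM in the other 3. The log2 ratio of Neb to Ttn in old reloading replicate 2, the library with the most Alb, was -3.176, against -3.011 to -2.985 in the other 3. The response of Rbm20 in reloaded against control mice differed between the ages by 0.458 (log2, edgeR adjusted p = 0.0227): 65.43 to 79.67 CPM in young reloaded against 89.45 to 124.1 CPM in young control mice, and 88.83 to 110.3 against 88.57 to 119.4 CPM in old mice.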

How the results depend on the processing

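Values below are log2 fold changes for genes and ratios, and percentage points for shares of reads. Under the alternatives listed here, leaving aside the dropped split of the controls below, Obsl1 kept its 4 calls against controls of the same age. Both log2 ratios to Ttn likewise kept their rise with unloading. The called changes of Ttn and Neb were small as fold changes, and each of their edgeR calls was lost under some choice of libraries or fit. Signs that turned belonged to values that were not called before or after, and the cause was not tested. In the young reloaded group, with 4 libraries, leaving out replicate 2 or replicate 4 changed calls or signs, which limits what can be said of reloading in young mice. A further split of the controls by mouse number, picked after the values of Ttn in those mice were seen, was run and then dropped because it grouped mice by the measured outcome. With controls numbered 5 to 9 alone, the calls of Ttn and Obsl1 in old against young controls, of Ttn in old unloaded mice and of the ratio of Neb to Ttn in old unloaded and reloaded mice were lost. With controls numbered 1 to 4 alone, several exact permutation tests of shares and ratios no longer passed. With 4 controls against 4 libraries, that test cannot give a p under 0.0286 before adjustment. A loss there cannot be told apart from having fewer mice.

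Ttn in old against young controls was not called with no filter on low counts (0.15), with only the compared groups in the fit (0.149) or without the 6 libraries with more Alb (0.147), a set chosen after seeing the data. With only the compared groups in the fit, Ttn also lost its calls in old unloading against control (-0.211) and old reloading against unloading (0.237). Without the 6 libraries the latter was 0.156, and 1.37 points by share of reads, neither called. This setting left out old reloading replicates 2 and 4, so the exact test of the share could hardly pass. Neb lost its call in old against young reloaded mice with only the compared groups (0.233) or without the 6 libraries (0.161). Its rise with reloading in old mice was lost with only the compared groups (0.241), and its rise against old controls without the 6 libraries (0.181). The Neb share in young unloaded mice was not called with the library total implied by RPKM (0.0521).

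Calls of Neb were gained. With DESeq2 these were the difference between ages in the reloading response (0.265) and old against young controls (0.107). The stricter filter gained the latter (0.117) and young reloading against control (0.138), which scaling by library totals gained too (0.117). The Neb share gained young reloading against control without the 6 libraries (0.345) and old reloading against unloading with the RPKM total (0.309). With controls numbered 1 to 6, also chosen after seeing the data, the ratio of Obsl1 to Ttn was called in old against young controls (0.246). Among all results checked under that setting, this was the 1 call gained, and 4 calls were lost. Without the 6 libraries, the partner genes called numbered 7 in place of 30 in old against young reloaded mice (793 in place of 2960 over all genes), 3 in place of 9 for the age difference in reloaded against control mice (141 in place of 724) and 2 in place of 5 for that in the reloading response (55 in place of 117).

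Signs turned for these values near 0. Ttn in old against young unloaded mice was 0.0374 with library totals, 0.00861 with the stricter filter, 0.0168 with the replicate block and 0.0163 without the 6 libraries. In old reloading against control Ttn was -0.0158 with library totals, -0.0123 with the block, -0.0441 without the 6 libraries and -0.0147 with controls 1 to 6. In young reloading against control it was -0.000234 with the block, and its age difference there was 0.00177 with DESeq2. Neb in young reloading against unloading was 0.00645 with library totals, 0.032 with the stricter filter and 0.0395 without the 6 libraries. Library totals also gave Neb 0.0263 in old against young unloaded mice and 0.0352 in old unloading, Obsl1 -0.033 for the age difference in reloading, Nebl 0.0347 and Rbm20 0.0179 in old unloading. Obsl1 in old against young unloaded mice was -0.00503 with the block and -0.00674 without the 6 libraries.

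Without the 6 libraries Obsl1 was also -0.0492 in young reloading against unloading and 0.0742 for the age difference in reloaded against control mice. The Ttn share in old against young reloaded mice was then -0.452, and the ratio of Obsl1 to Ttn was 0.148 in old reloading against unloading and -0.0287 in old against young unloaded mice. The N2-A share was -0.0264 in young reloading against unloading, the longer Obsl1 row -0.632 in old reloading against unloading and Nebl 0.0447 in old unloading. Controls 1 to 6 gave Nebl -0.132 in old against young controls and 0.0807 in old unloading. The RPKM total gave 0.227 for the Ttn share in old reloading against control and -0.0347 for the Neb share in old unloading. RPKM in place of reads gave 0.00203 for the ratio of Obsl1 to Ttn in young reloading against unloading and -0.0205 in old against young reloaded mice.

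With 1 library left out at a time, Ttn ran from 0.133 to 0.162 in old against young controls, -0.0427 to 0.0178 in unloaded mice, -0.00693 to 0.0605 in old and -0.0425 to 0.0606 in young reloading against control, and -0.0435 to 0.0564 for the age difference between these. Neb ran from 0.193 to 0.321 in old against young reloaded and -0.0396 to 0.0037 in unloaded mice. In young mice it ran from -0.0105 to 0.117 for reloading against control and -0.101 to 0.0272 against unloading, and the age difference in reloading from 0.214 to 0.342. Obsl1 ran from 0.238 to 0.332 in old against young controls, -0.0267 to 0.0871 in unloaded mice, -0.0885 to 0.152 in young reloading against unloading and -0.238 to 0.0217 for the age difference in reloaded against control mice. The Ttn share ran from 1.91 to 2.66 in old reloading against unloading, -0.592 to 0.159 in old and 0.469 to 1.79 in young reloading against control. The Neb share in young reloading ran from -0.0927 to 0.113 against unloading and 0.111 to 0.316 against control.

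The left-out ranges for the ratio of Neb to Ttn were -0.0354 to 0.011 in old against young unloaded mice and -0.0193 to 0.0488 in old reloading against unloading. Those for the ratio of Obsl1 to Ttn were -0.206 to 0.106 in young and -0.134 to 0.0192 in old reloading against unloading, -0.13 to 0.182 in old against young reloaded and -0.0434 to 0.109 in unloaded mice. The N2-A share ran from -0.200 to 0.254 in young reloading against unloading and -0.00944 to 0.0262 in old reloading against control. The longer Obsl1 row ran from -0.455 to 0.748 and Rbm20 from -0.0944 to 0.0134 in old reloading against unloading, and Nebl from -0.246 to 0.046 in old unloading.

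Same-numbered libraries of different groups mostly did not deviate together (r from -0.42 to 0.43, with at most 2 pairs above 0.1 in a comparison), so the numbers were not taken as pairs. In old against young reloaded mice, 2 of the 4 pairs were above 0.1, the highest at 0.43. The replicate block changed no call of the 3 genes. With it, Ttn in old unloading against control was -0.235 (edgeR adjusted p = 0.00467) and Obsl1 in young unloading against control was 0.746.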
